A study of Mus musculus with 9 samples.

Results

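The hippocampus of 3xTg mice dosed with the compound LP-10d was compared with the hippocampus of wild-type mice given solvent, gene by gene. The comparison used 6 of the 9 libraries of the series, 3 from treated 3xTg and 3 from WT vehicle mice, chosen by their labels. Of 55471 genes in the count table, 17396 passed the filter on low counts and were tested. All mice were female and aged 9 months. WT vehicle mice have C57BL/6J as their genotype and received blank solvent by mouth 4 times a week. Treated mice have the alleles APPSwe and tauP301L among those of the 3xTg line and received 10 mg/kg of LP-10d by mouth 4 times a week for 1 month. The remaining group, 3xTg vehicle, has the same kind of genotype and received solvent; its 3 libraries share in the estimate of the spread, and its values are given where they bear on a gene. In that line, mutant human APP and MAPT are driven in neurons by the Thy1 promoter. The 3xTg line was made on a background other than pure C57BL/6J. Treated and WT mice thus differ in transgenes, in strain background and in compound at once, and these cannot be told apart here. LP-10d is a code name, and the series title speaks of 3 kinase targets that the labels do not name. Whether the replicates are different animals is not stated in the labels; the p-values cover the spread among these libraries, which may be technical.

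The 3xTg mouse is a model in which amyloid and tau pathology build up in the hippocampus, the region that lays down new memories. Immediate early genes are switched on within minutes of neuronal firing, through cAMP- and calcium-driven kinases acting on CREB and SRF. The period genes Per1 and Per2 belong to the circadian clock, and they also respond to glucocorticoid hormones and to cAMP. Type I interferon genes are switched on when a complex that holds STAT2 and IRF9 binds a short promoter element, and in brain they are active in several cell types, microglia among them.

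Total counts ran from 16582086 to 19170969 per library. WT vehicle replicate 3 stood apart from the other libraries: mitochondrially encoded genes took 5.04% of its counts, against 2.28% to 2.86% elsewhere. The 8 markers of hippocampal pyramidal and granule neurons were all detected above the filter, and 6 of them were lower in treated mice. At an unadjusted p under 0.05 there were 2, both lower, where 4.67% of all genes were lower. The median log2 difference of the 8 was -0.30, or -0.11 without WT vehicle replicate 3. Markers of the choroid plexus, an epithelium beside the hippocampus, varied between libraries of both groups: Ttr, its main secreted protein, stood at 33.4, 4016 and 2025 CPM (the count relative to the TMM-scaled library total) in WT vehicle and at 1348, 2397 and 18.8 CPM in treated libraries. All 14 choroid plexus markers were detected in the 6 libraries and had fitted log2 differences below 0, with a median log2 difference of -0.78, but 0 were at an unadjusted p under 0.05. Counts of Y-linked genes were 0 in all 6 libraries compared. In a bulk tissue, fewer cells of a type and less RNA per cell cannot be told apart.

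By the quasi-likelihood test of edgeR, with p-values adjusted after Benjamini and Hochberg, 0 of 17396 genes (0%) passed an adjusted p of 0.05, and the smallest adjusted p was 0.299, for Egr4. At an unadjusted p under 0.05 there were 1523 genes (8.75%), of which 710 were higher in treated mice (4.08% of those tested) and 813 lower (4.67%). The treated and WT libraries did not overlap in 1303 genes that were higher (7.49%) and in 1199 that were lower (6.89%). DESeq2, run as an alternative, called 27 genes higher (0.155% of 17377) and 19 lower (0.109%), and limma-voom called 0. The median log2 difference over all genes was -0.0027, and 8605 of the 17396 were higher. The genes below are therefore described as higher or lower by their values. None passed edgeR's test with all libraries in the fit.

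Egr4 and Fosb, transcription factors induced by neuronal activity, were among the 8 genes named by smallest p on the lower side. Genes were so named only where treated and WT libraries did not overlap. Egr4, a zinc finger factor of the early growth response family (ENSMUSG00000071341, chr6:85511121-85513589, minus strand, mm10), stood at 42.6, 41.9 and 44.9 CPM in the WT vehicle libraries and at 26.2, 23.6 and 29.2 CPM in the treated ones. Every treated library lay below every WT library, and the log2 difference was -0.71 ± 0.09 (SE, n = 3 per group), with an adjusted p of 0.299 by edgeR's quasi-likelihood test and of 8.02e-07 by DESeq2. The 3xTg vehicle libraries lay between both groups, at 34.5, 34.1 and 36.1 CPM. Fosb, a partner of Jun in the AP-1 factor (ENSMUSG00000003545, chr7:19302696-19310051, minus strand), was at 20.7, 15.9 and 17.7 CPM in WT and at 7.79, 10.6 and 11.0 CPM in treated libraries. These groups did not overlap either, with a log2 difference of -0.89 ± 0.16 and adjusted p-values of 0.416 by edgeR's quasi-likelihood test and 0.00195 by DESeq2; 3xTg vehicle libraries were at 13.2, 15.6 and 15.1 CPM.

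The promoter windows of these 2 genes, from RefSeq on GRCm38.p6 (mm10), are shown because both carry the TGACG half-site of the cAMP response element. They run from 250 bases before to 50 after the transcription start, and the half-site or its reverse complement CGTCA is in capitals. The Egr4 window is chr6:85513540-85513839 on the minus strand, with matches starting 177 and 109 bases before the start site, and the Fosb window is chr7:19309996-19310295 on the minus strand, with 1 match starting 60 bases before it.
Egr4: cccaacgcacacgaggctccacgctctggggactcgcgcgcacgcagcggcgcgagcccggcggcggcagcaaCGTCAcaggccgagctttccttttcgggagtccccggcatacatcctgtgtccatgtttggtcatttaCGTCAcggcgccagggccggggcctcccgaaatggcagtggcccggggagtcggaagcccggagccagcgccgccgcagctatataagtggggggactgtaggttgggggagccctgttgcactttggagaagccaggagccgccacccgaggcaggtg
Fosb: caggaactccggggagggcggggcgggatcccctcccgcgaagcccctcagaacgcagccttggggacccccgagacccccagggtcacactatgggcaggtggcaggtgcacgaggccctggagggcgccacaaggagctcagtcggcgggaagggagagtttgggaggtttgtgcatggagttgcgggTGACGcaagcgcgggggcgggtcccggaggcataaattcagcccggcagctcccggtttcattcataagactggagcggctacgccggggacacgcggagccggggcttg
Of the 22 immediate early genes tested, 18 had a promoter entry, and 13 of these held TGACG on either strand. By windows the share was 52%, in 13 of 25, while 20.8% of all 32851 promoter windows of this length held it. A match describes letters in a window and is not a binding site.

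Most immediate early genes were lower in treated mice. Of the 22 members tested, 18 were lower and 4 higher, and 12 were lower at an unadjusted p under 0.05, where 4.67% of all genes were. The treated and WT libraries did not overlap in 11 members, all lower, beside 6.89% of all genes. The median log2 difference was -0.47, beside -0.0027 for all genes tested. Arc, which acts in the trimming of AMPA receptors at synapses, was at 260.8, 295 and 274 CPM in WT and at 70.8, 169 and 160.1 CPM in treated libraries. All treated values of Arc lay below all WT values, with a log2 difference of -1.05 ± 0.30, an adjusted p of 0.527 by edgeR's quasi-likelihood test and 0.0803 by DESeq2. Its 3xTg vehicle libraries were at 150.0, 158 and 265 CPM. Dusp6, a phosphatase that turns off ERK, stood at 67.6, 54.2 and 71.97 CPM in WT and at 33.9, 42.5 and 51.4 CPM in treated libraries, a log2 difference of -0.60 ± 0.16. Egr1 and Fos, named after their values were seen, had log2 differences of -0.94 ± 0.28 and -0.86 ± 0.37. The 4 members that were higher, also named after their values were seen, were Ier5 (log2 difference 0.35 ± 0.25), Jund (0.27 ± 0.24), Btg2 (0.21 ± 0.29) and Homer1 (0.07 ± 0.15).

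A score was computed for each list in each library, as the mean over its members of log2(CPM + 0.5) minus that gene's mean over the 9 libraries. For immediate early genes it was 0.17, 0.14 and 0.32 in WT vehicle and -0.53, -0.02 and -0.06 in treated libraries. Treated replicate 1 was the lowest of all, and the WT and treated scores did not overlap. In 3xTg vehicle the score was -0.07, -0.13 and 0.20, so that group spanned values of both others. The median of the list was -0.32 without treated replicate 1, -0.32 without WT vehicle replicate 3 and -0.58 without treated replicate 2, the widest it moved when any of the 6 libraries was left out.

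**Figure D1:**
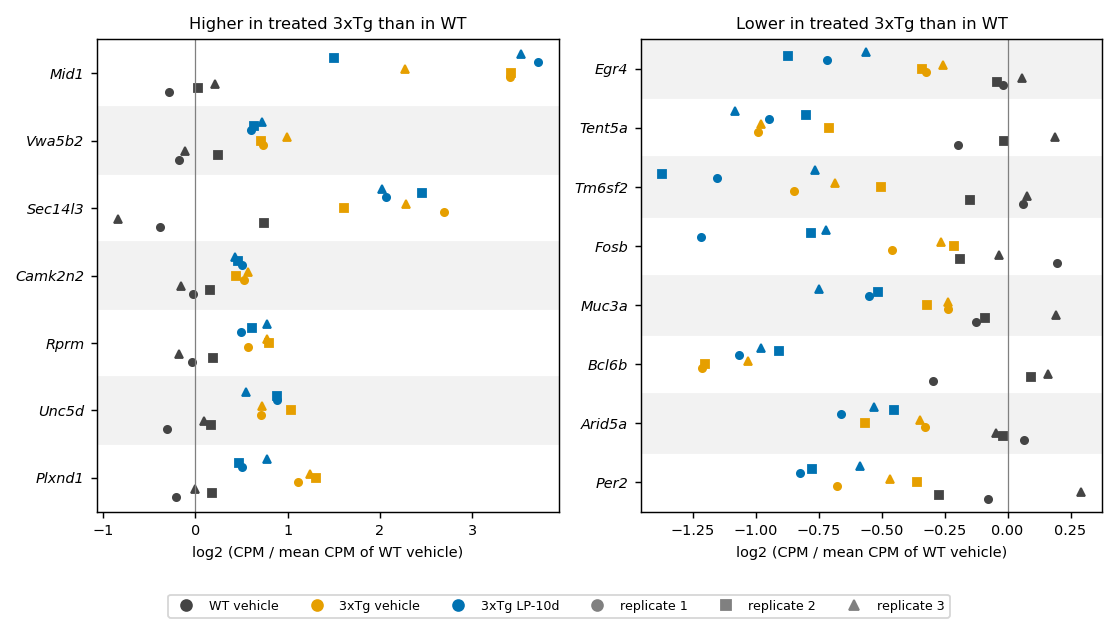
Level of 7 genes on the higher and 8 on the lower side, chosen by smallest p under the naming rule, as log2 of CPM over the mean CPM of WT vehicle (x axis), for each of 9 libraries (points; colour gives the group, shape the replicate). Treated libraries lie on one side of all WT vehicle libraries for each gene, as the rule requires. Egr4 at 23.6 to 29.2 CPM lies below 3xTg vehicle at 34.1 to 36.1 CPM, while Plxnd1 lies between WT and 3xTg vehicle.

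Period genes of the clock were lower too. Per2 stood at 74.4, 65.1 and 96.3 CPM in WT and at 44.4, 45.8 and 52.4 CPM in treated libraries, a log2 difference of -0.72 ± 0.15 (adjusted p 0.447 by edgeR's quasi-likelihood test, 0.00684 by DESeq2). Per1 stood at 151, 162 and 187 CPM against 109, 124 and 124 CPM, a log2 difference of -0.49 ± 0.10 (adjusted p 0.465 by edgeR's quasi-likelihood test, 0.0167 by DESeq2). For both genes each treated library was below each WT library. Per3, which shares reads with the overlapping gene Camta1 if counting did not split them, was at 70.3, 70.0 and 66.5 CPM against 60.2, 55.02 and 63.4 CPM. Nfil3, a repressor acting on D-box elements, had a log2 difference of -0.41 ± 0.16. Over the whole clock list, 15 of 20 members were lower and 5 higher, with a median of -0.12. Per1, Per2, Per3 and Nfil3 were the 4 members at an unadjusted p under 0.05, where 4.67% of all genes were lower. Without WT vehicle replicate 3 the median was 0.0036, with 10 members higher and 10 lower. The 5 that were higher, named after their values were seen, included the clock activator Clock (0.03 ± 0.11) and the output gene Dbp (0.26 ± 0.17). The score of the clock list was -0.09, -0.04 and 0.20 in WT vehicle and -0.13, -0.15 and -0.03 in treated libraries, so the groups overlapped.

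One Per1 promoter window, chr11:69098699-69098998 on the plus strand of GRCm38.p6, is shown because it holds the E-box CACGTG to which CLOCK and its partner bind; the E-box is in capitals and starts 166 bases before the start site.
Per1: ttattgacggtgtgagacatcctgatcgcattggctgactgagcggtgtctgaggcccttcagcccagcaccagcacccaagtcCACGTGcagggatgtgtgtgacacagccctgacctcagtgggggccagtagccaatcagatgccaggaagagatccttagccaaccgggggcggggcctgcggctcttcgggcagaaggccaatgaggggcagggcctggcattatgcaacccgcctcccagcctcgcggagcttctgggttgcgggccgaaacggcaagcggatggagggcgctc
A second Per1 window held no E-box. Of 17 clock genes with a promoter entry 5 held CACGTG, in 26.1% of their 23 windows, beside 7.15% of all windows. CACGTG reads the same on both strands.

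Genes that answer to glucocorticoids showed 14 members lower and 3 higher of 17 tested, with a median of -0.26. At an unadjusted p under 0.05 there were 5, all lower, beside 4.67% of all genes, and Per1 counts in both this list and the clock. Sgk1, a kinase that regulates ion channels, was at 79.9, 104.8 and 107.8 CPM in WT and at 50.8, 66.8 and 57.7 CPM in treated libraries, with no overlap. Its log2 difference was -0.74 ± 0.17, with adjusted p-values of 0.487 by edgeR's quasi-likelihood test and 0.0198 by DESeq2. Tsc22d3, the glucocorticoid-induced leucine zipper, was at 61.9, 59.9 and 63.4 CPM against 44.7, 47.7 and 52.6 CPM, a log2 difference of -0.35 ± 0.08. Errfi1, an inhibitor of the EGF receptor, had a log2 difference of -0.55 ± 0.15. Fkbp5 and the receptor Nr3c1, named after their values were seen, had log2 differences of -0.11 ± 0.10 and 0.08 ± 0.07. The score was 0.09, 0.13 and 0.11 in WT vehicle, -0.0034, 0.02 and 0.05 in 3xTg vehicle and -0.20, -0.11 and -0.09 in treated libraries, and these ranges did not overlap. The median stayed between -0.28 and -0.20 when each of the 6 libraries was left out in turn.

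**Figure D2:**
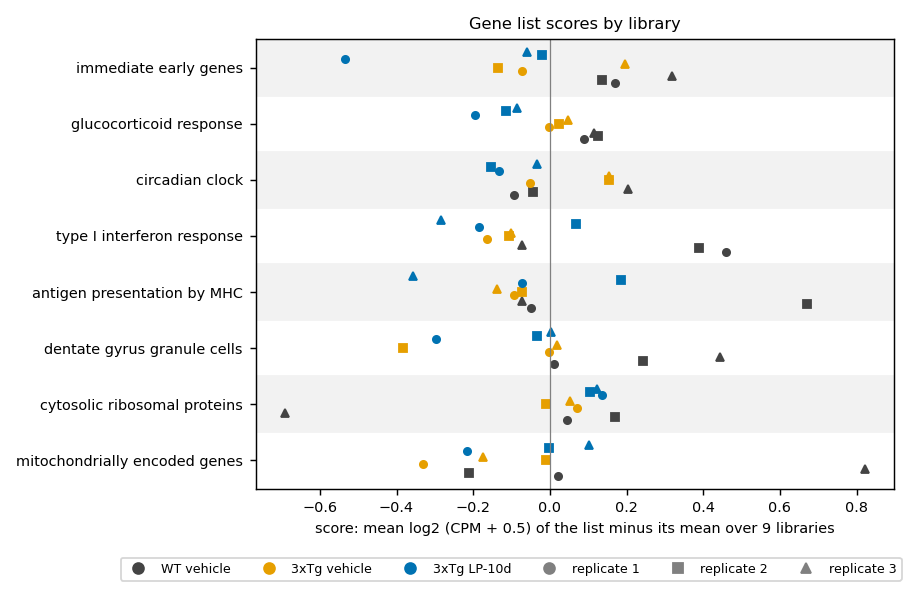
Score of 8 gene lists (rows) in each of 9 libraries (points; colour gives the group, shape the replicate); the x axis is the mean log2(CPM + 0.5) of the list minus its mean over all libraries. WT vehicle replicate 3 lies at -0.69 for ribosomal proteins and at 0.82 for mitochondrially encoded genes, and WT vehicle replicate 2 at 0.67 for antigen presentation.

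Type I interferon genes were lower in treated mice in all 26 members tested, with a median log2 difference of -0.52. At an unadjusted p under 0.05 there were 9, all lower, beside 4.67% of all genes, and in 9 the groups did not overlap, beside 6.89% of all genes. Irf9, the DNA-binding part of the factor it forms with STAT2, was at 19.1, 20.8 and 21.1 CPM in WT and at 11.4, 16.01 and 13.8 CPM in treated libraries. The log2 difference was -0.56 ± 0.13, with adjusted p-values of 0.487 by edgeR's quasi-likelihood test and 0.0592 by DESeq2; the gene overlaps Rnf31 on the same strand. Ddx58, the RIG-I sensor of viral RNA, was at 7.20, 8.28 and 7.23 CPM against 4.68, 5.93 and 5.21 CPM. Ifi203 was at 4.23, 3.35 and 5.84 CPM against 2.88, 2.43 and 2.36 CPM, and Ifi44 at 1.94, 1.15 and 1.11 CPM against 0.339, 0.771 and 0.384 CPM. The treated libraries were below the WT libraries in each of these 4 genes. Their log2 differences were -0.52 ± 0.15 for Ddx58, -0.80 ± 0.24 for Ifi203 and -1.49 ± 0.43 for Ifi44, the last on 6 to 34 counts per library. Isg15, a ubiquitin-like modifier named after its values were seen, had a log2 difference of -0.38 ± 0.33.

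The interferon score was 0.46, 0.39 and -0.07 in WT vehicle and -0.19, 0.07 and -0.28 in treated libraries. WT vehicle replicate 3 lay among the treated libraries, below treated replicate 2. In 3xTg vehicle the score was -0.16, -0.11 and -0.10, and the median difference of treated from 3xTg vehicle mice was -0.03. Leaving out each of the 6 libraries in turn left the median against WT between -0.67 and -0.39.

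Promoter windows of Ddx58 (chr4:40239776-40240075, minus strand) and Ifi203 (chr1:173942443-173942742, minus strand), on GRCm38.p6, are shown because they hold the core of the interferon-stimulated response element (GAAA, any 2 bases, GAAA), in capitals on the strand of the gene or as its reverse complement. The match starts 35 bases before the start site in Ifi203 and 3 bases after it in Ddx58.
Ddx58: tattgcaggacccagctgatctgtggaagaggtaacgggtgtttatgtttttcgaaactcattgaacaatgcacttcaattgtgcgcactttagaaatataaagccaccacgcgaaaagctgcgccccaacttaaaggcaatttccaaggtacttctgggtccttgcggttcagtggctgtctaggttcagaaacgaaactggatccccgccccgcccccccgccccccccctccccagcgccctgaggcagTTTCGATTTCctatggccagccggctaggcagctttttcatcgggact
Ifi203: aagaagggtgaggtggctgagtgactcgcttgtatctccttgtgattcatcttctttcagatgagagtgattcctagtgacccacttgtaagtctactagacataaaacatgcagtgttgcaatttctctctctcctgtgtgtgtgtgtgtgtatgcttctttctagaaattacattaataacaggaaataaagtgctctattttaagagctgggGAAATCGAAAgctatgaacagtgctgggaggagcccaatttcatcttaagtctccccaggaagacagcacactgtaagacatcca
Of 18 interferon genes with a promoter entry 12 held the core on either strand, in 59.1% of their 22 windows, beside 3.44% of all windows. The Irf9 and Ifi44 windows held no match.

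Antigen presentation genes had 18 of 20 members lower, 2 of them at an unadjusted p under 0.05, where 4.67% of all genes were. B2m, the light chain of MHC class I, was at 59.5, 71.6 and 92.3 CPM in WT and at 49.3, 56.6 and 52.5 CPM in treated libraries, a log2 difference of -0.50 ± 0.15. H2-Q7, a class I heavy chain with close paralogues that the counting may have split, was at 5.14, 7.49 and 6.29 CPM against 2.82, 5.28 and 2.30 CPM. The B2m groups did not overlap and the H2-Q7 groups did. The median of the list was -0.28, and 0.05 without WT vehicle replicate 2, whose score of 0.67 was the highest of the 9 libraries. For 3xTg vehicle minus WT the list median was -0.27, and for treated minus 3xTg vehicle it was 0.0049. Complement genes had 15 of 17 members lower, none at an unadjusted p under 0.05, with a median of -0.20, or -0.09 without WT vehicle replicate 2 and -0.10 without treated replicate 3. Disease-associated microglial genes (13 of 18 lower, median -0.08) and homeostatic microglial genes (7 of 14 lower, median -0.01) lay nearer to the median of all genes.

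Reactive astrocyte genes had 16 of 21 members lower and a median of -0.29, or -0.18 without WT vehicle replicate 2. At an unadjusted p under 0.05, 2 were lower and 1 higher, beside 4.67% and 4.08% of all genes. The list median was -0.34 for 3xTg vehicle minus WT and 0.07 for treated minus 3xTg vehicle. Cp, ceruloplasmin, was at 10.7, 14.2 and 14.96 CPM in WT and at 8.69, 8.83 and 6.70 CPM in treated libraries, without overlap, a log2 difference of -0.72 ± 0.17. Gfap, the intermediate filament of astrocytes, named after its values were seen, had a log2 difference of -0.06 ± 0.12. Astrocyte identity genes (median -0.0068), myelin genes (-0.15) and oligodendrocyte precursor genes (-0.05) had 1, 0 and 1 member higher at an unadjusted p under 0.05, and 0, 0 and 1 lower. The myelin score was highest in treated replicate 1, at 0.32, against 0.02 to 0.20 in WT vehicle, and the myelin median ran from -0.28 without that library to -0.05 without treated replicate 2.

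Granule neurons of the dentate gyrus, the entry gate of the hippocampal circuit, had all 14 of their listed genes lower in treated mice, 7 of them at an unadjusted p under 0.05, where 4.67% of all genes were lower. Dock10, a Rac and Cdc42 activator, was at 89.9, 96.1 and 117 CPM in WT and at 72.6, 84.9 and 82.9 CPM in treated libraries. Stxbp6 was at 67.1, 83.5 and 96.9 CPM against 60.0, 64.7 and 62.0 CPM, and Lct at 49.6, 77.2 and 77.3 CPM against 25.5, 37.2 and 49.2 CPM. Treated libraries were below WT libraries in these 3 genes, by a narrow gap for Lct. Plk5, at 40.8, 71.0 and 54.5 CPM against 33.6, 43.3 and 36.4 CPM, overlapped. The log2 differences were -0.34 ± 0.11 for Dock10, -0.41 ± 0.15 for Stxbp6, -0.87 ± 0.36 for Lct and -0.55 ± 0.18 for Plk5. The median of the list was -0.34, and -0.19 without WT vehicle replicate 3, which then left 13 members lower and 1 higher. For 3xTg vehicle minus WT the list median was -0.38, and for treated minus 3xTg vehicle it was -0.01. Genes of CA1 pyramidal cells had 7 of 11 members lower (median -0.05) and those of CA3 and CA2 had 12 of 16 lower (median -0.08); without WT vehicle replicate 1 these medians were 0.14 and 0.02. The score of the dentate list was 0.0099, 0.24 and 0.44 in WT vehicle and -0.30, -0.03 and 0.0037 in treated libraries. The general markers of hippocampal neurons, with 6 of 8 lower, scored 0.13, -0.02 and 0.37 in WT vehicle and -0.12, -0.08 and 0.05 in treated libraries, with overlap, and their part in the dentate and immediate early results was not tested. Thalamic markers moved with WT vehicle replicate 3, with scores of -0.56, 0.03 and 1.40 in WT vehicle and -0.41, 0.19 and -0.54 in treated libraries. All 10 were tested and none was at 0 counts in the 6 libraries. A further fit took as covariates a choroid plexus score and a score pooled over thalamus and striatum markers. Its medians were -0.37 for dentate gyrus, -0.48 for immediate early and -0.47 for interferon genes. The pooled score does not track thalamic markers alone. In WT vehicle replicate 3 the thalamic score was 1.40 and the striatal score -0.72, so this fit did not adjust for thalamic markers separately.

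Of 24 interneuron genes 14 were higher in treated mice, 5 of them at an unadjusted p under 0.05, where 4.08% of all genes were. The median was 0.09, and ran from 0.05 without WT vehicle replicate 2 to 0.17 without WT vehicle replicate 3. The score overlapped between the groups, at -0.09, -0.14 and -0.0045 in WT vehicle and 0.08, -0.07 and 0.02 in treated libraries. Neocortex markers, which share Lamp5 with this list, had 6 of 11 members higher, 2 at an unadjusted p under 0.05, and a median of 0.10, which ran from -0.01 without treated replicate 3 to 0.27 without WT vehicle replicate 3; their part in the result was not tested. Reln, a secreted guide of neuronal layering, was at 55.5, 59.4 and 61.4 CPM in WT and at 81.9, 67.5 and 70.6 CPM in treated libraries. Vip, a neuropeptide of one interneuron class, was at 9.42, 8.18 and 7.62 CPM against 12.4, 10.1 and 17.1 CPM. Lamp5 was at 33.1, 32.2 and 29.3 CPM against 40.2, 38.1 and 59.1 CPM. Treated libraries lay above WT libraries in all 3, with log2 differences of 0.32 ± 0.09, 0.66 ± 0.22 and 0.54 ± 0.18. Adcyap1, the neuropeptide PACAP, was at 2.34, 2.57 and 3.06 CPM in WT and at 5.53, 4.98 and 6.64 CPM in treated libraries. Its log2 difference was 1.11 ± 0.26, with adjusted p-values of 0.487 by edgeR's quasi-likelihood test and 0.0441 by DESeq2. Neuropeptides as a list had 11 of 19 members higher and a median of 0.08.

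With all libraries in the fit, synaptic lists had medians between -0.14 and -0.04. Glutamate receptors and postsynaptic scaffolds had 27 of 37 members lower with a median of -0.14, which was -0.03 without WT vehicle replicate 3. Gria1, an AMPA receptor subunit, was at 1349, 1037 and 1337 CPM in WT and at 956, 1024 and 950.4 CPM in treated libraries, a log2 difference of -0.35 ± 0.14. Presynaptic and SNARE genes had a median of -0.04, GABA-A receptor subunits -0.05, potassium channel complexes -0.09, and clustered protocadherins, whose variable exons share constant exons, -0.04. Without WT vehicle replicate 3 these medians were 0.05, -0.0014, 0.00056 and -0.0059, in the same order. Of 27 presynaptic and SNARE genes, 11 were higher with all libraries and 18 without that library.

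**Figure D3:**
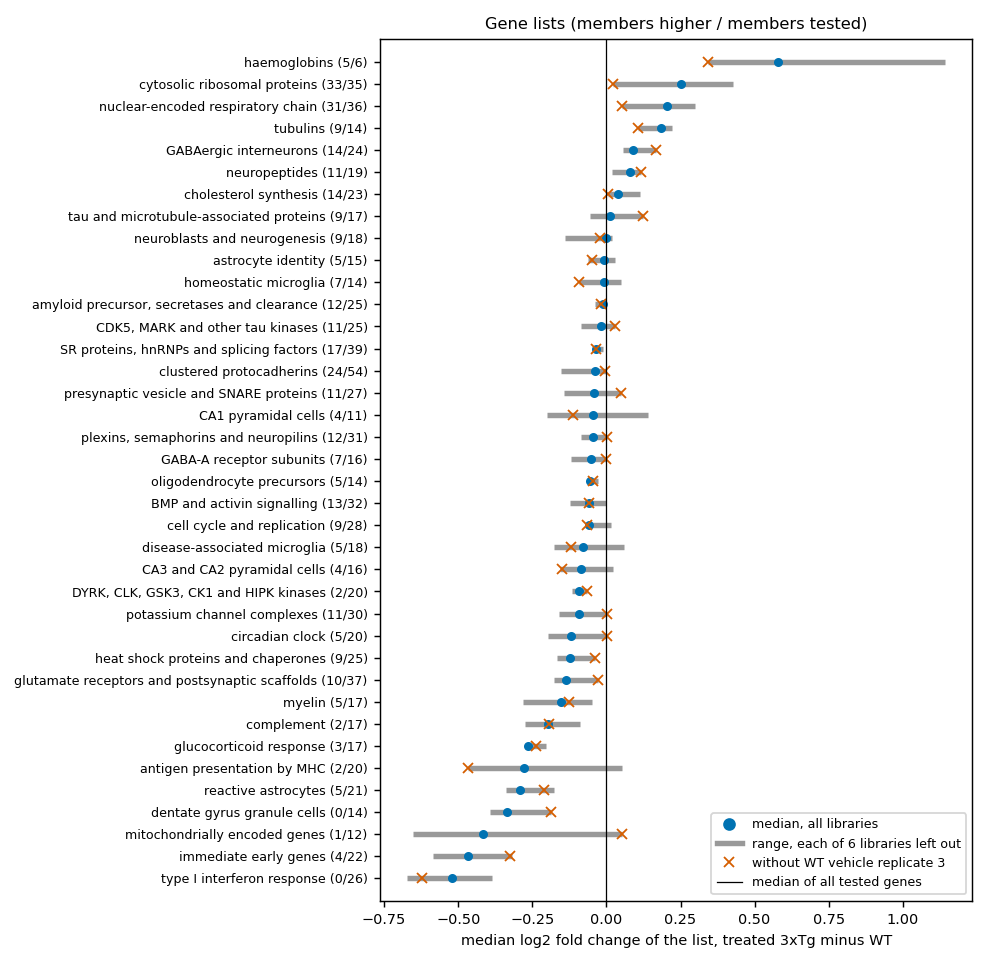
Median log2 difference of each gene list, treated 3xTg minus WT vehicle (blue points), with the range when each of the 6 compared libraries is left out (grey bars) and the value without WT vehicle replicate 3 (crosses); the vertical line is the median of all genes tested and the labels give members higher of members tested. Interferon, immediate early and dentate gyrus genes keep negative medians throughout, while ribosomal and mitochondrial lists move to 0.02 and 0.05 without WT vehicle replicate 3.

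Of the 7 genes named on the higher side, Mid1 had the largest log2 difference. Mid1, an X-linked E3 ubiquitin ligase of microtubules (ENSMUSG00000035299, chrX:169685199-170005736, plus strand), was at 2.51, 3.14 and 3.56 CPM in WT and at 40.1, 8.71 and 35.4 CPM in treated libraries. All treated libraries were above WT, but treated replicate 2 was far below the other treated libraries. The log2 difference was 3.19 ± 0.55, with adjusted p-values of 0.416 by edgeR's quasi-likelihood test and 7.01e-04 by DESeq2. In 3xTg vehicle the gene was at 32.7, 32.8 and 14.8 CPM, and the log2 difference of treated from 3xTg vehicle mice was 0.07 ± 0.46. G530011O06Rik lies inside Mid1 on the opposite strand and stood at 0.286, 0.157 and 0.167 CPM in WT and at 2.71, 0.889 and 2.14 CPM in treated libraries. Reads of the pair cannot be told apart without a known strand setting.

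Treated replicate 2 parted from the other treated libraries in a few more genes, named after their values were seen. Gm8210, a processed pseudogene on chromosome 1 (chr1:43189156-43189638) that overlaps Fhl2, had 116, 1 and 142 counts in treated replicates 1, 2 and 3 and 1, 2 and 2 counts in WT vehicle. Its 3xTg vehicle libraries had 124, 83 and 124 counts. Without treated replicate 2, edgeR's quasi-likelihood test (Benjamini-Hochberg) called 2 genes, Gm8210 (adjusted p 1.13e-04) and Mid1 (adjusted p 0.0146). Wdfy1, an endosomal adaptor of Toll-like receptors, was at 18.4, 20.1 and 12.01 CPM in WT and at 40.2, 23.7 and 41.9 CPM in treated libraries. Genes at the WT level in 1 treated library and at least 4-fold above it in the other 2 numbered 3 for treated replicate 2 (Gm8210, Gm14267 and Gm765, on chromosomes 1, 2 and 6) and 0 for each of the other treated libraries.

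**Figure D4:**
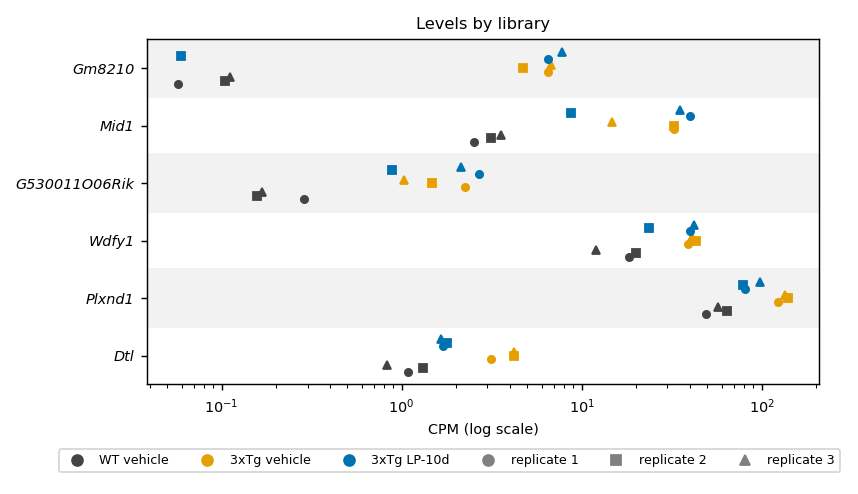
CPM on a log axis of 6 genes (rows) in each of 9 libraries (points; colour gives the group, shape the replicate). Treated replicate 2 (blue square) lies with WT vehicle for Gm8210 and nearest to WT among treated libraries for Mid1 and Wdfy1; Plxnd1 and Dtl in treated libraries lie between WT and 3xTg vehicle.

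Plxnd1 and Dtl stood between the levels of WT and of 3xTg vehicle mice. Plxnd1, a receptor for semaphorins (ENSMUSG00000030123, chr6:115954811-115995005, minus strand), was at 49.4, 64.6 and 57.1 CPM in WT, at 80.7, 79.1 and 97.6 CPM in treated and at 123, 141 and 135 CPM in 3xTg vehicle libraries. The 3 groups did not overlap. Its log2 difference from WT was 0.59 ± 0.12, with adjusted p-values of 0.447 by edgeR's quasi-likelihood test and 0.00818 by DESeq2. Its log2 difference from 3xTg vehicle was -0.63 ± 0.12, with adjusted p-values of 1.00 by edgeR's quasi-likelihood test and 0.0204 by DESeq2. Dtl, which guides a ubiquitin ligase to replication proteins, was at 1.08, 1.31 and 0.834 CPM in WT, at 1.69, 1.78 and 1.65 CPM in treated and at 3.16, 4.20 and 4.19 CPM in 3xTg vehicle libraries, on 15 to 77 counts each. Its log2 difference from WT was 0.66 ± 0.25 and from 3xTg vehicle -1.17 ± 0.20. Whether the treated and 3xTg vehicle groups differ was tested over all genes: 0 of 17396 (0%) passed edgeR's adjusted p of 0.05, 504 (2.9%) were at an unadjusted p under 0.05, limma-voom called 0 and DESeq2 called 1, Plxnd1. The list of plexins, semaphorins and neuropilins had 12 of 31 members higher than WT and a median of -0.05.

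Other genes at the head of the higher side did not overlap between the groups, as the naming rule requires. Their log2 differences from 3xTg vehicle lay between -0.16 and -0.04. Vwa5b2 was at 54.2, 72.4 and 56.7 CPM in WT and at 92.7, 95.0 and 100.6 CPM in treated libraries, and Camk2n2, an inhibitor of CaM kinase II, at 64.7, 73.2 and 59.2 CPM against 93.5, 90.5 and 88.6 CPM. Both lie on chromosome 16, 13.8 kb apart. Their log2 differences were 0.65 ± 0.12 and 0.47 ± 0.09 from WT, and -0.16 ± 0.12 and -0.04 ± 0.09 from 3xTg vehicle. Sec14l3 was at 0.457, 0.996 and 0.334 CPM in WT and at 2.48, 3.26 and 2.42 CPM in treated libraries, a log2 difference of 2.16 ± 0.41 on 6 to 55 counts. Rprm, a p53 target that halts the cell cycle, was at 21.7, 25.3 and 19.6 CPM against 31.2, 34.0 and 38.0 CPM. Unc5d, a netrin receptor of the UNC5 family, was at 11.7, 16.3 and 15.5 CPM against 26.7, 26.7 and 21.2 CPM. The log2 differences of Rprm and Unc5d were 0.63 ± 0.12 and 0.78 ± 0.16. DESeq2 called all 7 genes named on the higher side, with adjusted p-values from 7.01e-04 to 0.00818.

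The remaining genes at the head of the lower side were of mixed function. Tent5a, a poly(A) polymerase, was at 7.20, 8.18 and 9.40 CPM in WT and at 4.29, 4.74 and 3.90 CPM in treated libraries. Tm6sf2, which acts in lipoprotein secretion, was at 7.20, 6.24 and 7.29 CPM against 3.10, 2.67 and 4.06 CPM. Muc3a, a mucin, was at 31.0, 31.8 and 38.5 CPM against 23.1, 23.6 and 20.1 CPM. The log2 differences were -0.94 ± 0.16, -1.07 ± 0.18 and -0.60 ± 0.11, without overlap, as the naming rule requires. Bcl6b, a transcriptional repressor, was at 3.08, 4.03 and 4.23 CPM against 1.81, 2.02 and 1.92 CPM, a log2 difference of -0.98 ± 0.18, and was the 1 gene of the 8 that DESeq2 did not call (adjusted p 0.0803). Arid5a, which binds and steadies inflammatory mRNAs, was at 22.05, 20.8 and 20.4 CPM against 13.3, 15.4 and 14.6 CPM, a log2 difference of -0.55 ± 0.11. From 3xTg vehicle, the log2 differences of Tent5a, Tm6sf2, Muc3a, Bcl6b and Arid5a were -0.05, -0.40, -0.34, 0.16 and -0.14.

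**Figure D5:**
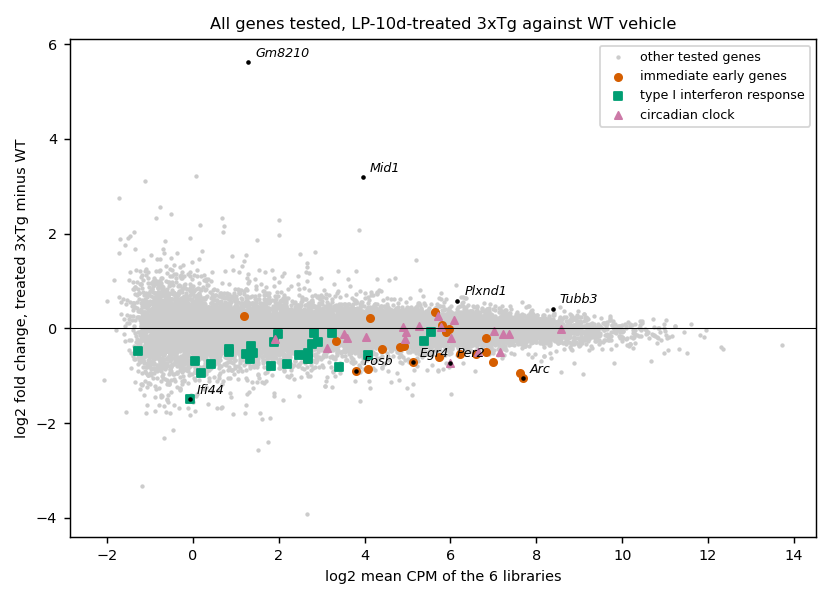
Log2 difference of treated 3xTg minus WT vehicle (y axis) against log2 mean CPM of the 6 libraries (x axis) for the 17396 genes tested (grey) with immediate early, interferon and clock genes coloured. All 26 interferon genes and 18 of 22 immediate early genes lie below 0, and none of the genes shown passed edgeR's adjusted threshold.

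Of the genes of the disease model, App and Mapt differed little. App was at 1907, 1613 and 2195 CPM in WT and at 1660, 1719 and 1649 CPM in treated libraries, a log2 difference of -0.18 ± 0.12. Mapt, which encodes tau, was at 661, 608 and 653 CPM against 629, 623 and 605 CPM, a log2 difference of -0.05 ± 0.07. Whether transcripts of the human transgenes were counted at these mouse genes was not tested. Thy1, whose promoter drives the transgenes, was at 647, 517 and 1139 CPM against 1079, 656 and 1040 CPM. All treated libraries lay above WT vehicle replicates 1 and 2 and below WT vehicle replicate 3. Its log2 difference was 0.27, and ran from 0.05 to 0.67 when each of the 6 libraries was left out in turn. Amyloid precursor, secretase and clearance genes had 12 of 25 members higher and a median of -0.0099. At an unadjusted p under 0.05, 2 were higher, where 4.08% of all genes were.

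Kinases of the DYRK, CLK, GSK3, CK1 and HIPK families, several of which phosphorylate tau or splicing factors, had 18 of 20 members lower by small amounts, with a median of -0.09. Clk1 was at 96.9, 99.5 and 109.8 CPM in WT and at 77.5, 83.8 and 88.9 CPM in treated libraries, and Dyrk3 at 17.1, 16.3 and 17.3 CPM against 12.1, 13.5 and 14.8 CPM. Hipk1 was at 136, 143 and 159 CPM against 128, 127 and 126 CPM. These 3 did not overlap, with log2 differences of -0.29 ± 0.09, -0.33 ± 0.13 and -0.20 ± 0.08. In all, 4 members were lower at an unadjusted p under 0.05, the fourth being Clk2, where 4.67% of all genes were lower. The 2 members that were higher, named after their values were seen, were Gsk3a (0.11 ± 0.12) and Gsk3b (0.00089 ± 0.10), and Dyrk1a, also so named, had a log2 difference of -0.07 ± 0.09. CDK5, MARK and other tau kinases had a median of -0.02 and SR proteins, hnRNPs and splicing factors -0.04, the latter with 6 of 39 members lower at an unadjusted p under 0.05.

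Tubulins, the subunits of microtubules, had 9 of 14 members higher and a median of 0.18, or 0.11 without WT vehicle replicate 3. At an unadjusted p under 0.05, 3 were higher, where 4.08% of all genes were. Tubb3, the neuronal beta tubulin, was at 300.1, 286 and 269 CPM in WT and at 367, 354 and 419.8 CPM in treated libraries. These did not overlap, and the log2 difference was 0.42 ± 0.08, with adjusted p-values of 0.447 by edgeR's quasi-likelihood test and 0.0051 by DESeq2. Its 3xTg vehicle libraries were at 436, 436 and 434 CPM, above all treated libraries. Tubb5 was at 442, 411 and 421 CPM against 484, 464 and 489 CPM, a log2 difference of 0.17 ± 0.07. Tau and other microtubule-associated proteins had 9 of 17 members higher and a median of 0.01.

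Haemoglobin genes were higher in 5 of 6 members, with a median of 0.58, which moved to 0.34 when WT vehicle replicate 3 was left out and to 1.14 when replicate 2 was. For 3xTg vehicle minus WT the list median was 1.22, and for treated minus 3xTg vehicle it was -0.50. Hba-a1, an alpha chain with a near-identical copy, was at 18.6, 29.5 and 11.1 CPM in WT and at 64.3, 35.8 and 60.4 CPM in treated libraries, and the nearby Hbq1b had 2, 5 and 5 counts against 23, 23 and 17. Neither overlapped, with log2 differences of 1.44 ± 0.33 and 2.40 ± 0.37 and DESeq2 adjusted p-values of 0.00661 and 0.0131. Hbb-bs, a beta chain, overlapped, at 17.6, 31.3 and 18.3 CPM against 37.0, 27.7 and 32.7 CPM. The copy Hba-a2, the member that was lower, had a log2 difference of -0.34 ± 0.35 and was named after its values were seen.

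Lists of ribosomal and respiratory genes had medians that depended largely on 1 WT library. Cytosolic ribosomal proteins were higher in 33 of 35 members with a median of 0.25, and nuclear-encoded respiratory chain genes in 31 of 36 with a median of 0.20. The groups did not overlap in 3 ribosomal and 9 respiratory members, all higher, beside 7.49% of all genes. Without WT vehicle replicate 3 the medians were 0.02 and 0.05, with 21 and 29 members still higher. Mitochondrially encoded genes were lower in 11 of 12 members with a median of -0.41, and had a median of 0.05 without that library. At mt-Nd1, a complex I subunit, WT vehicle libraries were at 2556, 2067 and 5680 CPM and treated libraries at 2240, 2434 and 2524 CPM, with overlap. Cholesterol synthesis (median 0.04), heat shock proteins and chaperones (-0.12), BMP and activin signalling (-0.06), cell cycle and replication (-0.06) and neuroblasts and neurogenesis (-5.8e-06) were the remaining lists. They had 23, 25, 32, 28 and 18 members tested. At an unadjusted p under 0.05, 0, 0, 2, 1 and 1 members were higher and 1, 3, 4, 2 and 2 lower, beside 4.08% and 4.67% of all genes.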

How the data were processed

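Hippocampal RNA was prepared with TRIzol and column purification and sequenced from MGI libraries, per the labels' protocols. The authors deposited raw gene counts and FPKM values computed from them, with gene names, biotypes and positions; per the submitters' processing notes, reads were placed on mm10. Which aligner, counter and strandedness were used is not given in the sources used here. Overlapping or near-identical genes may therefore share reads.

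The test was run in edgeR 4.0.16 under R 4.3.3: genes were filtered by filterByExpr and scaled by TMM, 1 mean per group was fitted over the 9 libraries, and quasi-likelihood p-values were Benjamini-Hochberg adjusted over all 17396 genes at a threshold of 0.05. Levels are CPM computed from the counts the authors deposited, on TMM-scaled totals. With 3 libraries per group, the smallest p of an exact permutation test is 0.1. Up to 15 genes per direction were to be named by smallest p among those that passed, whose treated and WT libraries did not overlap, with at least 1 CPM on average and a standard symbol, completed to 8 where fewer passed; up to 4 members by smallest p were named from each list, and App, Mapt, Thy1, Plxnd1 and Dtl always. Some genes that this rule names are not reported here. The members and the 38 lists were chosen with earlier results of these data known. No set test was run, and no p is given over a list.

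The same fit was tested on simulated data. The libraries of 1 group differed by more than sampling noise in each pair. Alternatives included DESeq2 1.42.0, RLE and upper-quartile scaling, limma-voom and limma-trend (limma 3.58.1) on log2(FPKM + 0.1) or log2(FPKM + 1), which understates the change of low genes, other filters, a replicate block, a fit of the 6 libraries alone, omission of libraries, tissue marker scores as covariates and a test against 1.5-fold. Same-numbered libraries did not correlate above 0.1 in every pair, in their deviations from group means, so they are not treated as pairs. Promoter windows are RefSeq's, on GRCm38.p6.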

Additional observations from a re-analysis of the deposited data

How the results depend on the processing

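Called genes were 0 by edgeR under every scaling, filter and design run with all treated libraries. Counts moved with the tool and with 1 library. DESeq2 called 27 genes higher and 19 lower, and limma-trend on log2(FPKM + 0.1) with no filter called 3 higher and 4 lower, mostly small RNAs and pseudogenes. Leaving out 1 library gave 0 to 2 genes higher and 0 lower, the 2 being Gm8210 and Mid1 without treated replicate 2. For treated against 3xTg vehicle, DESeq2 called 1 gene, Plxnd1, and limma-trend with no filter called 8. With the replicate block, edgeR called 0 genes, with a smallest adjusted p of 0.189 and 1484 genes at an unadjusted p under 0.05; deviations of same-numbered WT and treated libraries correlated at -0.17, 0.19 and -0.10, and those of 3xTg vehicle and treated libraries at 0.19, 0.09 and 0.38; no WT library correlated best with the treated library of its own number. For treated against 3xTg vehicle the block left 0 calls and 539 genes at an unadjusted p under 0.05. The log2 difference of mt-Nd1, -0.52 with all libraries, was -0.7803 without WT vehicle replicate 2, 0.05324 without WT vehicle replicate 3 and 0.05318 without that library and 3xTg vehicle replicate 2. Over the named genes and the alternatives, 1698 values kept their direction and side of the threshold, 27 passed it only under the alternative and 2 changed sign. Medians of the lists moved beyond their spread in 27 cases and stayed within it in 429. Depth limits genes of few counts, such as Ifi44, Dtl and Sec14l3.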
